A study of Sus scrofa with 12 samples.

Results

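NANOG, SOX2, ESRRB, SALL4, PRDM14, TFCP2L1 and TDGF1 are 7 genes of the core pluripotency network, and their RNA levels were read from every library of a study of pig induced pluripotent stem (iPS) cells. They were chosen by name from the 24358 genes of the deposited tables, not by their values, although earlier results of these data were known when the list was made. Of the 7, 6 were found by their symbol and 1, NANOG, by its identifier. The data were 12 RNA sequencing libraries in 4 groups of 3, deposited as 2 tables of 6 libraries each. The first table held WT PC-iPS cells, which are unedited iPS cells made from pig pericytes, and NANOG tdTomato knock-in PC-iPS cells, both grown in LCDMV medium (LIF, CHIR99021, dimethindene, minocycline and vitamin C). The second table held knock-in cells treated with Activin A and knock-in cells treated with SB431542, which by the study's methods were grown in LCDMV medium without LIF. All libraries were made from cells collected after the feeder cells had been left behind on a plate.

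The knock-in cells carry FLAG, tdTomato and a puromycin resistance gene behind the coding sequence of NANOG. They were selected with puromycin, picked as fluorescent colonies and sorted for tdTomato, so NANOG was used to choose them, and the study describes 3 lines with the numbers 1 to 3. The libraries of the knock-in, Activin A and SB431542 groups carry the same numbers. Nothing says that the WT libraries came from separate cultures, so that p-values measure the spread between these libraries, which may be technical. In RNA from whole cultures, fewer cells that express a gene and less RNA per cell cannot be told apart.

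NANOG, SOX2 and SALL4 are transcription factors that hold pluripotent cells undifferentiated, and ESRRB, an orphan nuclear receptor, and TFCP2L1 belong to the part of the network that is most active in the naive state of the mouse. PRDM14 is a zinc finger protein that represses differentiation genes, and TDGF1 (CRIPTO) is the co-receptor through which NODAL reaches the Activin receptors. Activin A binds Activin receptors and leads to phosphorylation of SMAD2 and SMAD3, which act at target genes such as LEFTY2 and SMAD7, and SB431542 blocks the kinase of these receptors.

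The site cut to insert the reporter is shown because it decides which NANOG genes can carry it. By the study's account, the same target stands in the NANOG genes of chromosomes 1 and 5. The guide matches the first 20 of the 23 bases printed, 5′ to 3′, and the capitals in the target mark the PAM, the bases that Cas9 needs beside its target. In the left arm of the donor plasmid the same stretch carries 1 substitution, G22A, counted from 1 at the 5′ end of the guide, and the capitals mark the same bases.
Guide target with PAM: atcttcaggctgtatgttcaTGG
Same bases in the left arm of the donor: atcttcaggctgtatgttcaTAG

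RefSeq's annotation of Sscrofa11.1, matched by symbol, lists a protein-coding NANOG gene at chr1:169064134-169065292, which spans 1159 bp, and another at chr5:62931642-62939086, which spans 7445 bp. NANOG has 1 row in the tables, under the identifier ENSSSCG00000040403, and which of these genes that row stands for is not given there. Reads that fit both genes could have been split or left out, and every NANOG value is uncertain to that extent. SOX2 (ENSSSCG00000037485) lies at chr13:119668476-119669435, ESRRB (ENSSSCG00000002388) at chr7:99511135-99699478 and SALL4 (ENSSSCG00000007479) at chr17:53082610-53103023. PRDM14 (ENSSSCG00000006195) lies at chr4:65273988-65295362, TFCP2L1 (ENSSSCG00000015732) at chr15:30072142-30131810 and TDGF1 (ENSSSCG00000023395) at chr13:29537874-29544686. All are annotated as protein-coding, and the values cover whole genes without a split into exons or UTRs.

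Total depth is unknown because the values are FPKM, a level divided by gene length and by library size. Relative to the deepest library, a knock-in library set to 1, depth was 0.566 to 0.633 in WT, 0.732 to 1 in knock-in, 0.859 to 0.979 in Activin A and 0.841 to 0.946 in SB431542 libraries. Mitochondrial genes held 13.9% to 16.4% of summed FPKM in WT and 9.43% to 11.5% in the other 9 libraries, so depth and this share both moved with the comparison of knock-in with WT, and their part in its results was not tested. The label of pluripotent cells was checked against its markers. LIN28A, NANOG and SOX2 were well expressed, whereas EPCAM, an epithelial surface protein of pluripotent cells, lay between 0.264 and 0.516 FPKM in all 12 libraries, and POU5F1 could not be matched. CDH1, the adhesion molecule E-cadherin, stood at 1.97, 1.64 and 1.05 FPKM in WT and 5.01, 17.4 and 2.63 FPKM in knock-in libraries 1 to 3. ZFP42, KLF17, DPPA2 and GDF3 were listed at 0 in all 12 libraries.

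NANOG differed most among the 4 members that could be tested, and its level followed both the knock-in and the treatment. In WT libraries 1 to 3 it stood at 9.71, 16.4 and 27.6 FPKM, and in knock-in libraries 1 to 3 at 52.0, 101 and 70.4 FPKM. Activin A libraries 1 to 3 held 109, 195 and 157 FPKM, and SB431542 libraries 1 to 3 held 11.8, 27.2 and 11.8 FPKM. Every knock-in library lay above every WT library, and every Activin A library above every SB431542 library, while the values of SB431542 and WT overlapped across the tables.

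The mean level of NANOG was 74.5 ± 24.8 FPKM in knock-in against 17.9 ± 9.02 in WT cells (SD, n = 3 each). On the scale of log2(FPKM + 1), which is used for all fold changes here, the difference was 2.06 (SE 0.37, 95% confidence interval 1.20 to 2.92, adjusted p = 0.025, limma with Benjamini-Hochberg adjustment). Because cells were chosen by a reporter at NANOG, this difference checks the label of the knock-in cells and is no independent finding. A gene was called when its absolute log2 fold change was at least 1 and its adjusted p at most 0.05. By that rule 324 of 14014 genes tested were called between knock-in and WT, or 2.31% (1.61% higher and 0.706% lower), and NANOG was the only one of the 4 tested members among them. Complete separation of the groups with knock-in higher, as for NANOG, was seen for 19% of genes. The call was lost without either of WT libraries 1 and 2 and without any one of the knock-in libraries, where the adjusted p lay between 0.0541 and 0.0794, and it held without WT library 3 (adjusted p = 0.0158).

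Activin A and SB431542 are the opposite ends of one signal, and every NANOG value with Activin A lay above every value with SB431542. Its mean was 154 ± 43.0 FPKM with Activin A and 16.9 ± 8.89 with SB431542 (SD, n = 3 each), a difference of 3.18 on the log2 scale (SE 0.35, 95% confidence interval 2.34 to 4.02, adjusted p = 0.042, limma). Among 13999 genes tested, 13 were called, or 0.0929% (0.0571% higher with Activin A and 0.0357% lower), and only 1 gene had a larger absolute fold change than NANOG. When libraries were paired by number, the same difference had an SE of 0.16 and an adjusted p of 0.011 (limma with the number as a block), and the count of called genes rose to 99, or 0.707%. The unpaired call held without SB431542 library 2 (adjusted p = 0.0327) and was lost without any other library, where the adjusted p was 0.132 to 0.208 and the difference still 2.99 to 3.40. The change in this comparison and that between knock-in and WT differed by -1.12 (95% confidence interval -2.37 to 0.14), which did not pass (adjusted p = 0.263, limma), so the changes of NANOG are not shown to differ in size. The exact two-sided permutation test cannot go below p = 0.1 with 3 libraries against 3, and NANOG reached that value in both comparisons.

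Every Activin A value lay above every SB431542 value for 9.19% of genes. Within each number the ratios of NANOG were alike in direction, which held with Activin A higher for 23.8% of 13696 genes and with Activin A lower for 25.4%. Activin A over SB431542 was 9.29, 7.18 and 13.3 for numbers 1, 2 and 3. Set against the knock-in library of the same number in the other table, the ratio was 2.10, 1.93 and 2.23 for Activin A and 0.226, 0.269 and 0.168 for SB431542. These ratios across tables compare cells that differed in medium as well as treatment and carry no test. In each of these 3 groups, number 1 was lowest (with number 3 close to it in SB431542) and number 2 highest, and number 2 was highest in all of them for 10.5% of genes.

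**Figure D1:**
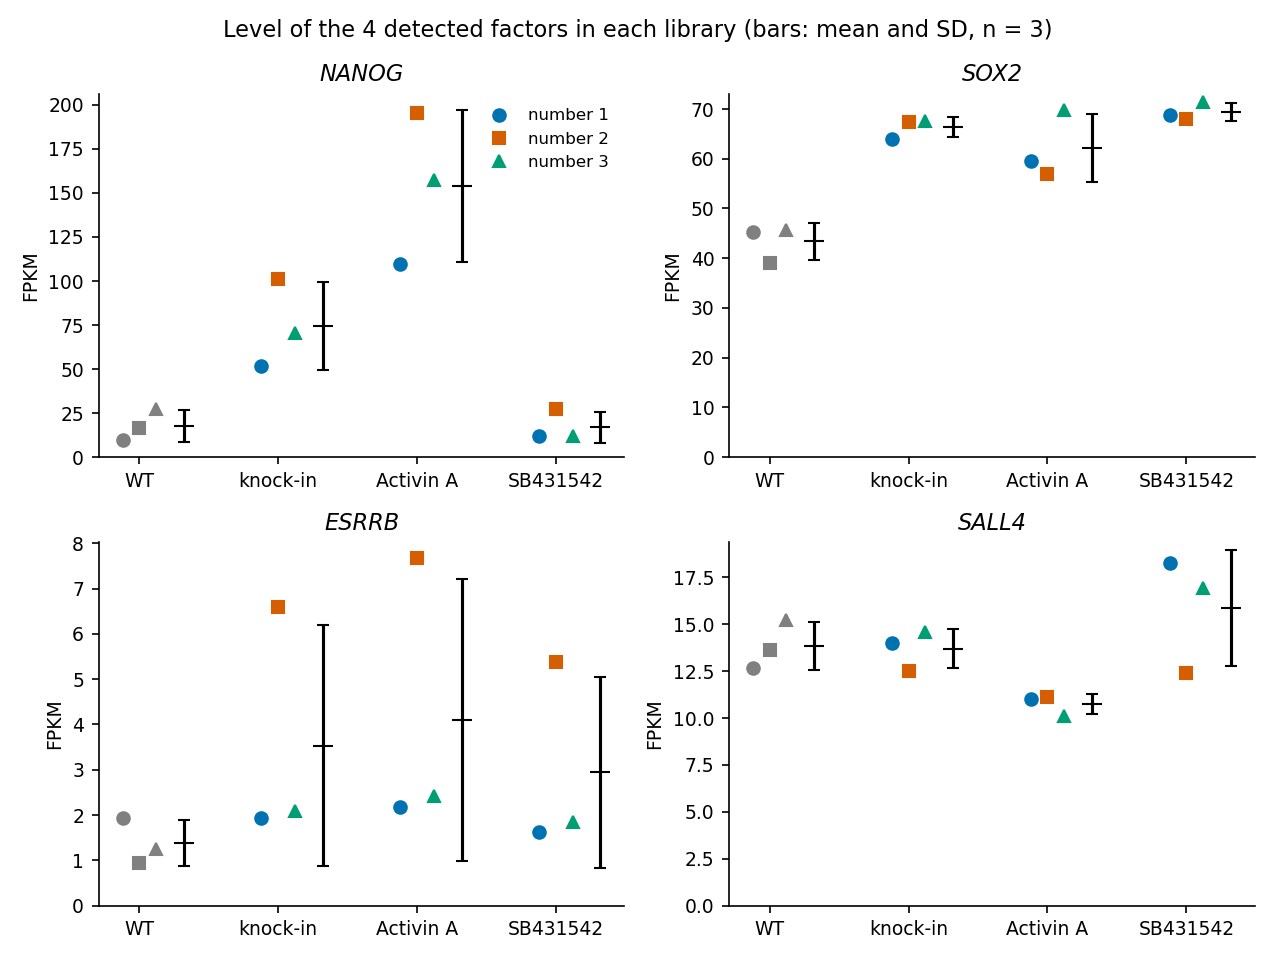
Level in FPKM (linear axes from 0) of NANOG, SOX2, ESRRB and SALL4 in the 12 libraries, with symbols for the library numbers 1 to 3 (grey in WT, where numbers do not mark a line) and the mean and SD of each group beside them. NANOG falls from 109 to 195 FPKM in Activin A libraries to 11.8 to 27.2 in SB431542 libraries, while SOX2 stays between 56.9 and 71.5 in all 9 libraries of knock-in cells.

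SOX2, the HMG box partner of OCT4 at many pluripotency enhancers, was higher in knock-in cells and did not follow NANOG between the treatments. WT libraries 1 to 3 held 45.2, 39.1 and 45.7 FPKM, and knock-in libraries 1 to 3 held 64.0, 67.4 and 67.7 FPKM. Activin A libraries 1 to 3 held 59.6, 56.9 and 69.9 FPKM, and SB431542 libraries 1 to 3 held 68.8, 68.0 and 71.5 FPKM. All 9 libraries of knock-in cells thus lay above all 3 WT libraries, a pattern shown by 1641 of 13696 genes, or 12%.

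Between knock-in and WT cells SOX2 differed by 0.60 on the log2 scale (SE 0.10, 95% confidence interval 0.38 to 0.83, adjusted p = 0.020, limma), from a mean of 43.4 ± 3.67 to 66.3 ± 2.06 FPKM (SD, n = 3 each). The adjusted p passed but the fold did not reach the threshold, so SOX2 was not called. By the adjusted p alone 1012 genes passed, or 7.22%. Over the alternatives the adjusted p of SOX2 ranged from 0.0156 to 0.081. It was at most 0.05 in 12 of 16 of them and missed this in 2 of the 6 that left out 1 library.

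Activin A and SB431542 libraries overlapped in SOX2, with means of 62.1 ± 6.87 and 69.4 ± 1.83 FPKM (SD, n = 3 each). The difference was -0.16 (95% confidence interval -0.38 to 0.05, adjusted p = 0.495, limma; exact permutation p = 0.3), and the interval leaves out a change of the size seen for NANOG. By number, Activin A over SB431542 was 0.866, 0.836 and 0.978, and the paired 95% confidence interval was -0.32 to -0.004 (paired adjusted p = 0.203, limma). A test of the difference between the comparisons, added after the values had been seen, gave 0.77 for SOX2 (SE 0.13, 95% confidence interval 0.49 to 1.05, adjusted p = 0.0082, limma). That p lay between 0.00538 and 0.029 over its alternatives. In that test 832 of 13696 genes, or 6.07%, had an adjusted p of at most 0.05. It treated the 12 libraries as independent, although same-numbered libraries of knock-in cells were alike across the tables. Their deviations from the group means correlated at 0.489 to 0.659. SOX2 lay at 68.0 to 71.5 FPKM in SB431542 and at 39.1 to 45.7 FPKM in WT libraries, where NANOG of these groups overlapped. These groups stand in different tables and were grown in different media, and no test was made.

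ESRRB was far lower than NANOG and SOX2, and library 2 of the knock-in cells stood apart in it under every treatment. WT libraries 1 to 3 held 1.94, 0.948 and 1.24 FPKM, and knock-in libraries 1 to 3 held 1.92, 6.60 and 2.08 FPKM. Activin A libraries 1 to 3 held 2.17, 7.69 and 2.42 FPKM, and SB431542 libraries 1 to 3 held 1.62, 5.38 and 1.85 FPKM. Number 2 was 3.29 times the mean of numbers 1 and 3 in knock-in, 3.35 times in Activin A and 3.11 times in SB431542 libraries, and 38 of 13696 genes, or 0.277%, were at least 3 times higher in number 2 in all of these groups.

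The groups overlapped in ESRRB in both comparisons. Knock-in and WT differed by 0.80 (95% confidence interval -0.06 to 1.67, adjusted p = 0.198, limma; exact permutation p = 0.2), and this value was 0.36 without knock-in library 2 and 1.05 at most with 1 library left out. Activin A and SB431542 differed by 0.33 (SE 0.49, 95% confidence interval -0.84 to 1.5, adjusted p = 0.819, limma; exact permutation p = 0.5), and this value became -0.14 without Activin A library 2. Both intervals are wide enough to hold a change of 1 and a change of 0.

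Within a number ESRRB moved the same way as NANOG by a small amount. Activin A over SB431542 was 1.34, 1.43 and 1.31, Activin A over knock-in 1.13, 1.17 and 1.16, and SB431542 over knock-in 0.840, 0.816 and 0.888. The order of SB431542, knock-in and Activin A from low to high in every number held for NANOG and ESRRB and for 769 of 13696 genes, or 5.61%. Paired by number, the difference of ESRRB between the treatments kept the value of 0.33 with an SE of 0.09 and a 95% confidence interval of 0.10 to 0.56, but its adjusted p was 0.128 (limma). Markers of another lineage moved with number 2 as well. KRT8, a keratin of trophectoderm and other epithelia, stood at 428, 334 and 835 FPKM in number 2 of knock-in, Activin A and SB431542 and at 35.3 to 200.1 FPKM in numbers 1 and 3. The summed level of the 7 trophectoderm markers was 75.2 to 504 FPKM in knock-in, 81.2 to 454 in Activin A, 120.2 to 939 in SB431542 and 12.2 to 18.9 in WT libraries, with CDX2 listed at 0 in all 12 libraries and ELF5 at most 0.0045 FPKM on average in each group. Their part in the levels of ESRRB was not tested.

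SALL4, a zinc finger factor that works with NANOG and SOX2, had like levels in WT and knock-in cells and its lowest levels with Activin A. WT libraries 1 to 3 held 12.7, 13.7 and 15.2 FPKM, and knock-in libraries 1 to 3 held 14.0, 12.5 and 14.6 FPKM. Activin A libraries 1 to 3 held 11.01, 11.11 and 10.12 FPKM, and SB431542 libraries 1 to 3 held 18.3, 12.4 and 16.9 FPKM. Every Activin A library lay below every SB431542 library. The Activin A values also lay below those of WT and knock-in cells, which stand in the other table and were grown in another medium. That order was not counted over all genes and carries no test.

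Knock-in and WT overlapped in SALL4 and differed by -0.01 (95% confidence interval -0.30 to 0.27, adjusted p = 0.956, limma; exact permutation p = 0.9). Activin A and SB431542 differed by -0.51 (SE 0.15, 95% confidence interval -0.86 to -0.15, adjusted p = 0.253, limma), and the paired adjusted p was 0.118, so the difference failed the correction over all genes although the groups did not overlap. Complete separation with Activin A lower was seen for 1515 of 13999 genes, or 10.8%. By number, Activin A over SB431542 was 0.603, 0.897 and 0.597. The difference between the comparisons was 0.49 (95% confidence interval 0.08 to 0.91) and did not pass (adjusted p = 0.146, limma).

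**Figure D2:**
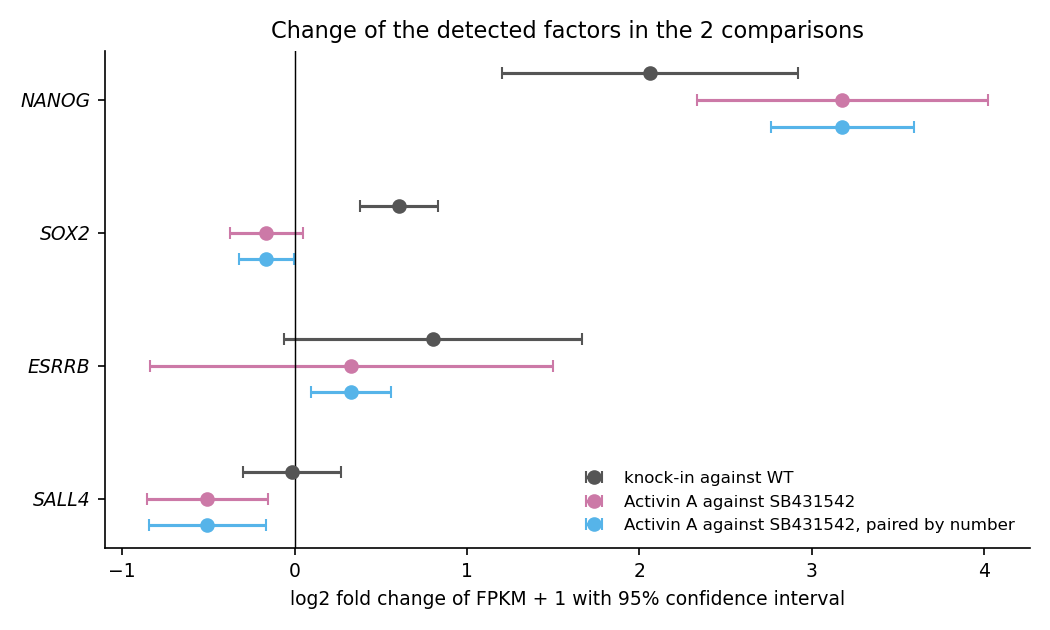
Log2 fold change of FPKM + 1 with its 95% confidence interval for NANOG, SOX2, ESRRB and SALL4, for knock-in against WT, Activin A against SB431542, and the latter paired by library number. NANOG lies at 2.06 and 3.18, SOX2 at 0.60 and -0.16, and SALL4 at -0.01 and -0.51, and pairing narrows the interval of ESRRB around 0.33.

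PRDM14, TFCP2L1 and TDGF1 were at or near 0, and none of the 3 passed the filter of 0.1 FPKM in 3 of 6 libraries in either table, so no fold or fitted test is given for them. PRDM14 was listed at 0.056, 0 and 0.0671 FPKM in WT libraries 1 to 3 and at 0.0425, 0 and 0 in knock-in libraries. Its values were 0, 0 and 0.0221 FPKM with Activin A and 0, 0.0954 and 0 with SB431542. No library reached 0.1 FPKM, and every group had at least 1 library at 0.

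TFCP2L1 was listed at 0 in all 3 WT libraries and at 0.0214, 0 and 0 FPKM in knock-in libraries 1 to 3. Activin A libraries 1 to 3 held 0, 0.0218 and 0.0571 FPKM and SB431542 libraries 0.0164, 0 and 0.0204. TDGF1 was listed at 0.102, 0 and 0.599 FPKM in WT libraries 1 to 3, at 0 in all knock-in and all SB431542 libraries, and at 0, 0.226 and 0 with Activin A. The highest value of these 3 genes, TDGF1 in WT library 3, was under 1 FPKM, and an exact 0 in such tables shows only that the gene is listed at 0.

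**Figure D3:**
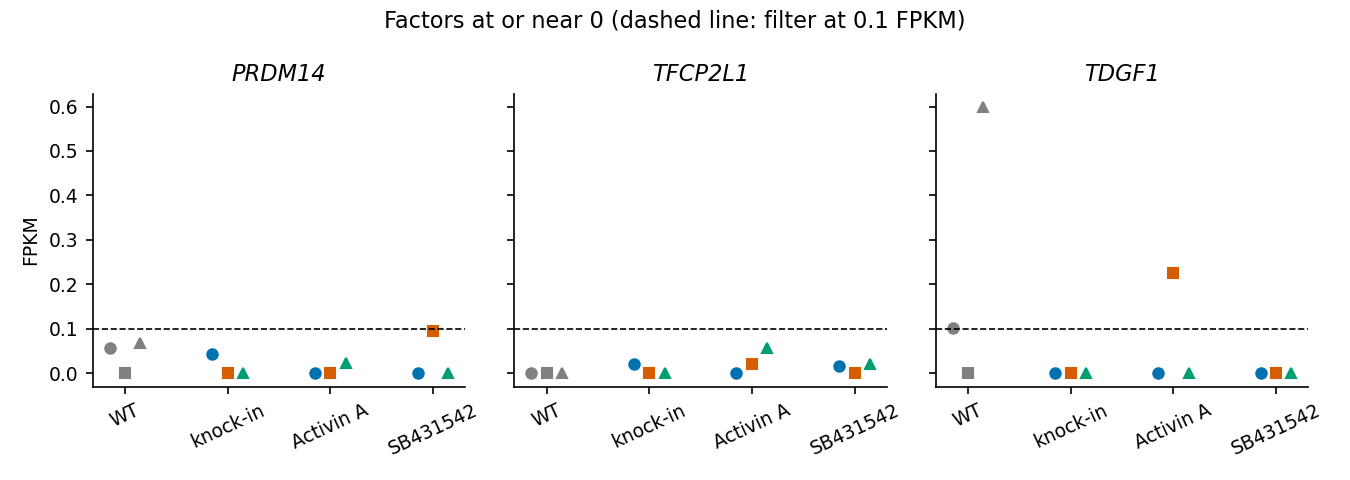
FPKM (linear axis) of PRDM14, TFCP2L1 and TDGF1 in the 12 libraries, with symbols for the library numbers as before and a dashed line at the filter of 0.1 FPKM. PRDM14 and TFCP2L1 stay below the line in every library, and TDGF1 passes it in WT libraries 1 and 3 and Activin A library 2.

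On the FPKM scale, which is per length, the order of levels changed between groups. In WT cells SOX2 (43.4 FPKM) lay above NANOG (17.9) and SALL4 (13.8), whose values overlapped, and ESRRB (1.38) lay below them. In knock-in cells NANOG (74.5) and SOX2 (66.3) overlapped, and with Activin A NANOG (154) lay above SOX2 (62.1) in every library. With SB431542 SOX2 (69.4) was again highest and NANOG (16.9) and SALL4 (15.9) overlapped. ESRRB was the lowest of these 4 genes in every library.

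Likeness to NANOG was described by Pearson's r of log2(FPKM + 1) over the 12 libraries, which share lines, tables and depth and fall into groups, so no p is given. It was 0.567 for ESRRB, 0.316 for SOX2 and -0.721 for SALL4, and the middle 90% of the other 13695 genes lay between -0.649 and 0.660. The value of SOX2 rested on single libraries, at 0.174 without WT library 1, 0.196 without WT library 2 and 0.472 without SB431542 library 3, while ESRRB stayed within 0.412 to 0.671 and SALL4 within -0.838 to -0.657 with any 1 library left out. When only deviations from the group means in the 9 libraries of knock-in cells were used, r was 0.892 for ESRRB, -0.03 for SOX2 and -0.784 for SALL4, with the middle 90% of genes between -0.802 and 0.773. ESRRB thus ranked 227 of 13695 genes by likeness within these groups. Number 2 was highest in all of these groups for both NANOG and ESRRB, as for 10.5% of genes. The value without number 2 was not computed, so likeness apart from that number is not shown. With the WT libraries included, r over deviations was 0.60 for ESRRB, 0.0049 for SOX2 and -0.348 for SALL4. SOX2 ran against NANOG over these 9 libraries when levels were used (r = -0.60) but not when group means were removed.

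The 8 named genes with levels most like NANOG over the 12 libraries were HEY2, LIG3, FSTL3, IP6K2, TPST2, NUDT22, DSCAML1 and PTGS2, with r from 0.943 down to 0.909. HEY2, a transcriptional repressor of the Notch pathway, had means of 0.677, 2.06, 2.82 and 1.03 FPKM in WT, knock-in, Activin A and SB431542. FSTL3, a secreted protein that binds Activin, had means of 0.998, 1.81, 2.84 and 1.18 FPKM. None of the other members was among them.

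**Figure D4:**
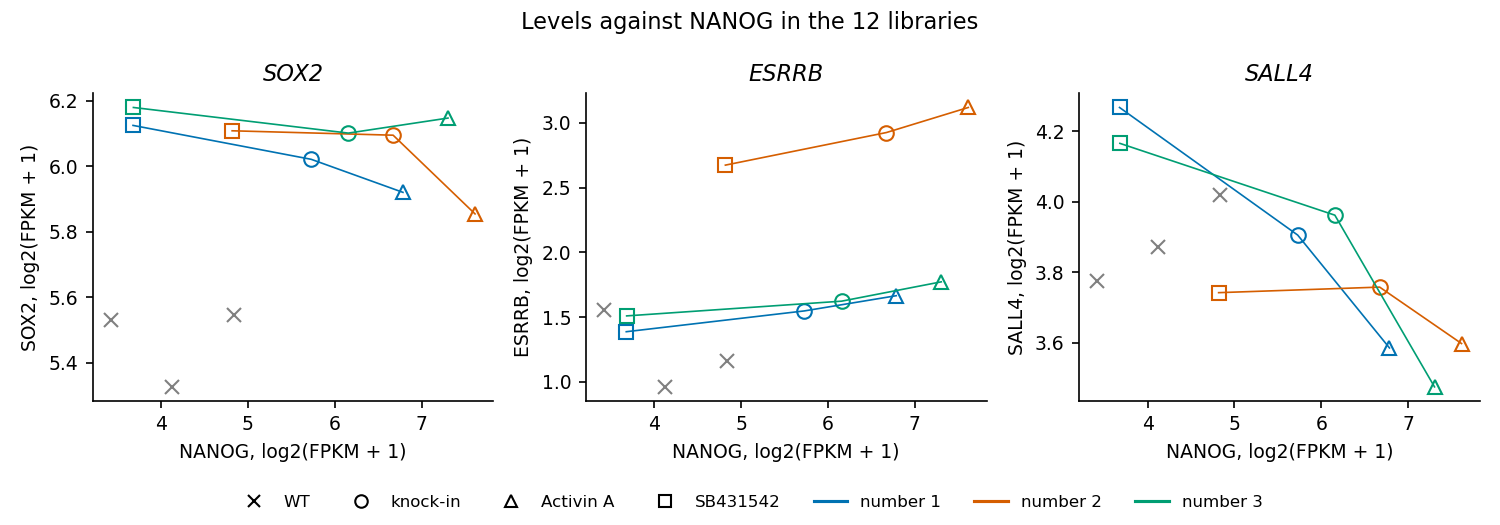
Level of SOX2, ESRRB and SALL4 against NANOG, each as log2(FPKM + 1), in the 12 libraries. Symbols mark the groups and lines join the SB431542, knock-in and Activin A libraries of one number. ESRRB rises with NANOG along each line with number 2 above the rest, and SALL4 is lowest in the Activin A libraries (10.1 to 11.1 FPKM).

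Other genes of the network were taken from fixed lists and are given by counts. Of 14 naive state genes, 13 were in the tables and 6 were tested between knock-in and WT, of which KLF2 and NR0B1 passed the filter only through the knock-in libraries, so that their direction was fixed by the filter. None of the other 4 was called, against 2.31% of all genes, and their median log2 fold change was 0.73, against -0.0014 over all genes. KLF2, a Krüppel-like factor, stood at 0, 0.0542 and 0.046 FPKM in WT and 0.807, 2.23 and 1.94 in knock-in libraries 1 to 3. Between Activin A and SB431542, 8 naive genes were tested and none was called, against 0.0929% of all genes, with a median of 0.20 against -0.004 over all genes. With pairing, which called 0.707% of all genes, TFAP2C, an AP-2 factor of naive and trophoblast cells, was called higher with Activin A (1.51, paired adjusted p = 0.019, limma). TFAP2C stood at 6.93, 17.8 and 4.21 FPKM with Activin A and at 1.27, 6.36 and 1.01 with SB431542, so that number 2 was again highest in both.

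Of 15 general pluripotency genes, 11 were in the tables and 9 were tested, with 2 called higher in knock-in cells, against 1.61% of all genes, and a median of 0.42, against -0.0014 over all genes. LIN28A, an RNA-binding protein that blocks let-7 maturation, stood at 32.8, 47.6 and 40.1 FPKM in WT and at 163, 285 and 108 in knock-in libraries 1 to 3 (2.08, adjusted p = 0.018, limma). TRIM71, a let-7 target, differed by 1.33 (adjusted p = 0.0056, limma). Between the treatments the median was -0.33, against -0.004 over all genes, and none was called without pairing, against 0.0929% of all genes. With pairing, where 0.707% of all genes were called, LIN28A was called lower with Activin A (-1.55, paired adjusted p = 0.015, limma), at 90.0, 200 and 67.5 FPKM against 327, 498 and 192 FPKM with SB431542. LIN28A thus lay opposite to NANOG between the treatments in every number, whereas both were higher in knock-in than in WT.

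Formative and primed state genes and paralogs of the members gave no call in either comparison, with or without pairing, out of 10 tested in each list. The shares called over all genes were 2.31% for knock-in against WT and 0.0929%, or 0.707% with pairing, for Activin A against SB431542, so that 0 of 10 is near the background and is no result about these lists. Among the former, OTX2 had means of 79.0, 68.8, 58.2 and 63.7 FPKM in WT, knock-in, Activin A and SB431542. The median fold changes were -0.17 between knock-in and WT and 0.09 between the treatments for the former list, and -0.0015 and -0.07 for the paralogs.

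Of 14 SMAD2/3 readouts and NODAL pathway genes, 12 were in the tables and 10 were tested. LEFTY2 passed the filter for Activin A against SB431542 only through the Activin A libraries. Between Activin A and SB431542, 1 of the other 9 was called higher, against 0.0571% of all genes, and their median was 0.58, against -0.004 over all genes. SMAD7, an inhibitory SMAD, stood at 7.28, 8.07 and 6.67 FPKM with Activin A and 1.75, 1.11 and 1.37 with SB431542 (1.80, adjusted p = 0.024, limma), and this call was lost whichever of the 6 libraries was left out and without a filter. LEFTY2, an inhibitor of NODAL, stood at 1.37, 0.783 and 1.20 FPKM with Activin A and was listed at 0 in all SB431542 libraries, and no test is given for it because the filter fixed its direction. Pairing, with 0.707% of all genes called, added PMEPA1 (1.74, adjusted p = 0.0083) and BAMBI (1.11, adjusted p = 0.016), both feedback inhibitors of TGF-β signalling (limma). NODAL, the ligand that needs TDGF1, was at most 0.121 FPKM in every library. In knock-in against WT, TGIF1 (1.33, adjusted p = 0.0093) and ID1 (1.56, adjusted p = 0.023, limma) were called higher, against 1.61% of all genes. Between the treatments TGIF1 differed by 0.35 (adjusted p = 0.557) and ID1 by 1.31 (adjusted p = 0.323, paired 0.062, limma), and whether the comparisons differ in these genes was not tested.

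**Figure D5:**
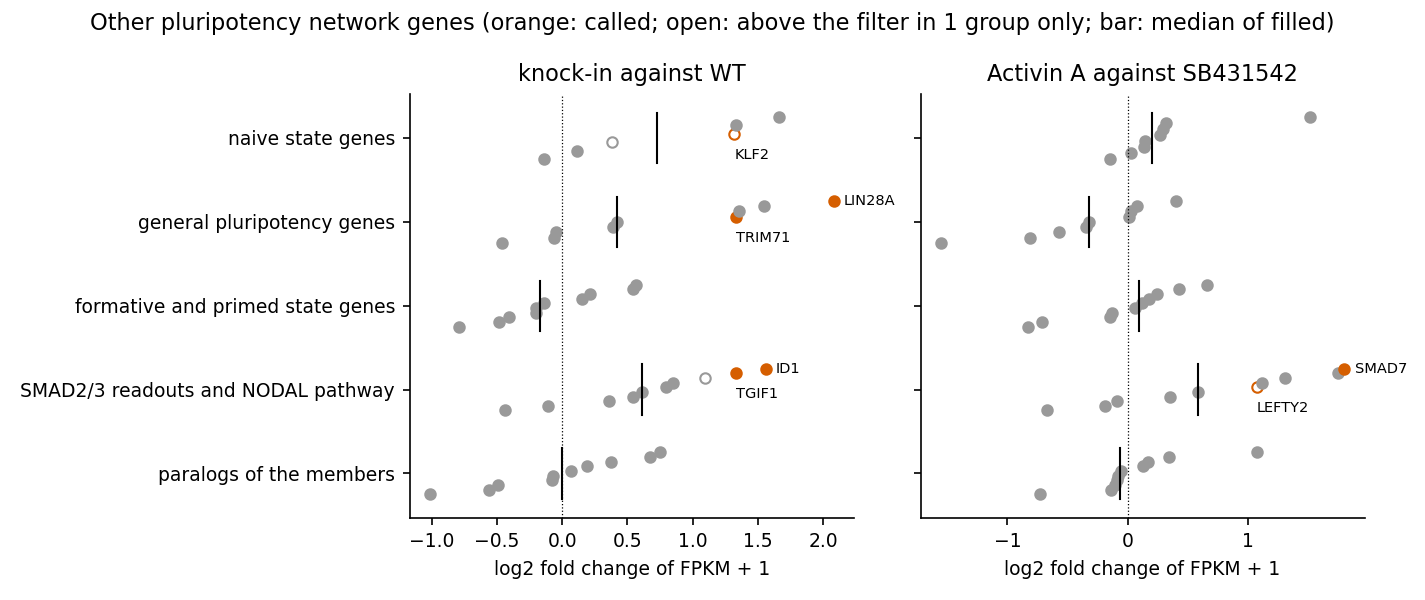
Log2 fold change of FPKM + 1 for the tested genes of the 5 lists in the comparison of knock-in with WT (left) and Activin A with SB431542 without pairing (right), with called genes in orange and named, genes above the filter in 1 group only as open symbols, and a vertical bar at the median of the filled symbols. The SMAD2/3 list has its median at 0.58 between the treatments, and the formative and paralog lists hold no called gene.

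Markers of other cell types also moved with the groups, and their part in the results for the members was not tested. Summed over 9 fibroblast and feeder markers, the level was 33.6 to 45.0 FPKM in WT, 63.3 to 92.4 in knock-in, 82.6 to 119 in Activin A and 47.3 to 52.1 in SB431542 libraries, highest with Activin A as NANOG was. Its most abundant gene was FBLN1, and DCN was called higher in knock-in cells (1.49, adjusted p = 0.031, limma). In knock-in against WT, 5 of the 7 tested fibroblast markers had a positive fold change, against 6980 of 14014 genes. COL1A1 (-0.39) and PDGFRA (-0.16) were lower in knock-in cells, as were the means of LUM and POSTN, which did not pass the filter. Between the treatments 5 of 7 were also positive, against 6874 of 13999 genes, with COL1A1 at -0.10 and PDGFRA at -0.01. With pairing, COL1A2 (1.58, paired adjusted p = 0.024) and COL3A1 (3.08, paired adjusted p = 0.012) were called higher with Activin A than with SB431542 (limma), the direction of NANOG. Of the 8 pericyte markers, NOTCH3 was most abundant over the means of all groups and ACTA2 in SB431542 libraries. The 8 markers summed to 28.8 to 31.6 FPKM in WT, 52.8 to 55.6 in knock-in, 45.0 to 51.6 in Activin A and 61.4 to 63.3 in SB431542 libraries. Among the groups of knock-in cells this sum was lowest with Activin A and highest with SB431542, opposite to NANOG, but the list was split. Between the treatments 3 of the 7 tested pericyte markers had a positive fold change, the direction of NANOG. These were NOTCH3 (0.41), RGS5 (0.63) and CSPG4 (0.08). In knock-in against WT 6 of 7 were positive, with MCAM at -0.02. The mean of DES, which did not pass the filter, was lower in knock-in cells. PDGFRB (1.64, adjusted p = 0.012) and ACTA2 (2.61, adjusted p = 0.0016) were called higher in knock-in cells, and ACTA2 was called lower with Activin A than with SB431542 (-1.13, adjusted p = 0.035, limma). Of the trophectoderm markers, KRT8 (4.13, adjusted p = 0.025) and TFAP2A (1.56, adjusted p = 0.019) were called higher in knock-in cells (limma). With pairing, GATA2 was called higher (2.28, paired adjusted p = 0.034) and KRT8 lower (-1.21, paired adjusted p = 0.015) with Activin A than with SB431542 (limma).

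The 4 endoderm markers summed to 6.32 to 8.98 FPKM in WT, 12.5 to 18.9 in knock-in, 18.0 to 22.8 in Activin A and 7.40 to 15.0 in SB431542 libraries. Nearly all of this was GATA6, and GATA4 was listed at 0 in all WT, knock-in and Activin A libraries. The 4 mesendoderm markers, TBXT among them, summed to at most 0.383 FPKM in every library. The 3 neural markers, which were led by NES, summed to 83.8 to 118 FPKM in WT and 123 to 169 in the other groups, and PAX6 was called lower in knock-in cells (-2.17, adjusted p = 0.040, limma).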

How the data were processed

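RNA was sequenced from 12 libraries, 3 in each of 4 groups taken from the sample titles. The authors deposited FPKM per gene, made, per the study's methods and the submitters' processing notes, by aligning trimmed reads to Ssc11.1 with HISAT2 2.0.4 and running StringTie 1.3.3 with an Ensembl annotation. They also counted reads with featureCounts 1.6.4 for DESeq2, and those counts and the authors' own fold changes and p-values were not used here. FPKM is scaled to each library's reads and each gene's length, and without read totals no counting interval is given. Relative depth was estimated from low values (under 0.3 FPKM) as their most frequent ratio to the deepest library.

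For the 2 comparisons each table was fitted alone with limma 3.58.1 (R 4.3.3, variance trend) on log2(FPKM + 1). Genes with at least 0.1 FPKM in 3 of 6 libraries were kept. The difference between the comparisons came from 1 limma fit over all 12 libraries, with each comparison taken within its table. That fit held the 13696 genes that passed the filter in both tables, and its block alternative covered the Activin A and SB431542 libraries only. P-values were adjusted by Benjamini-Hochberg over all genes tested. Members were also tested by exact permutation of the libraries, two-sided. Python 3.11.15 and matplotlib 3.10.9 drew the figures. In simulated data 200 genes were changed by a log2 fold change of 2, drawn from genes with a mean log2(FPKM + 1) above 2. The fit without pairing recovered 187 with 4 false calls for knock-in against WT (14206 genes). For Activin A against SB431542 it recovered 191 with 5 (14109 genes). The simulated noise was independent between libraries, with nothing shared by a number, so recovery in the real libraries or for lower genes is not shown.

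The numbers 1 to 3 of Activin A and SB431542 come from the sample titles, and the study numbers its knock-in lines likewise. Deviations from the group means, over 13999 genes, correlated at 0.400, 0.587 and 0.535 between libraries of the same number, so these libraries were also fitted with the number as a block.

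Members and lists were chosen with earlier results of these data known. Genes named are the 7 members, in each pathway list up to 4 called genes by size of change, the 8 genes with a symbol most like NANOG, and of each marker list the most abundant and any called gene. TFAP2C, PMEPA1, BAMBI, COL1A2, COL3A1 and GATA2, called only with pairing, and CDH1, EPCAM, OTX2, NODAL and genes listed at 0 were chosen for naming after seeing their values. Symbols came from the tables for 17451 genes and from an identifier table for 965, and 5942 had none. The alternatives were other pseudocounts (0.1 and 0.01), filters (none, or 1 FPKM) and scalings (TPM among them), no variance trend, the block, the adjusted p alone and each library left out. Leaving genes that passed the filter through 1 group only out of list medians was decided after seeing the data. Promoter motifs were planned but not analysed here.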

Additional observations from a re-analysis of the deposited data

How the results depend on the processing

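The direction of NANOG and SOX2 held in both comparisons under every alternative run. In knock-in against WT, NANOG kept 2.06 but lost the call without a filter (adjusted p = 0.131) and, in an alternative chosen after seeing the data, without a filter but leaving out genes at 0 in all 6 libraries (2.06, adjusted p = 0.0536). It ranged from 1.71 to 2.42 with 1 library left out. In Activin A against SB431542 it lost the call with a pseudocount of 0.01 (3.26, adjusted p = 0.063), without a filter (3.18, adjusted p = 0.185), without a filter and without genes at 0 (3.18, adjusted p = 0.101), at a filter of 1 FPKM (3.18, adjusted p = 0.0567) and without the variance trend (3.18, adjusted p = 0.052), and it ranged from 2.99 to 3.56 with 1 library left out (limma). SALL4 in knock-in against WT, near 0, turned to 0.016 with TPM and ranged from -0.0701 to 0.0518 with 1 library left out, above 0 without knock-in library 2 or WT library 3. ESRRB in Activin A against SB431542 ranged from -0.14 to 0.74, below 0 without Activin A library 2. Likeness to NANOG over deviations from the group means of all 12 libraries was 0.60 for ESRRB, 0.0049 for SOX2 and -0.348 for SALL4. The cause of these changes was not tested.

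Genes called in knock-in against WT were 225 higher and 99 lower. The counts were 346 and 192 with a pseudocount of 0.1, 44 and 9 without a filter, 684 and 328 by the adjusted p alone, and 117 to 303 and 28 to 143 with 1 library left out. Those lower were 181 with a pseudocount of 0.01, 42 without a filter and without genes at 0, and 156 with TPM. In Activin A against SB431542, 8 were higher and 5 lower. These became 5 and 3 with a pseudocount of 0.01, 0 and 1 without a filter, 3 and 2 without a filter and without genes at 0, 2 and 3 at 1 FPKM, and 0 to 4 and 0 to 1 with 1 library left out, while those higher became 3 without the variance trend and 13 by the adjusted p alone. Of the 5 pathway lists together, KLF2 and LEFTY2 included, 5 genes were called in knock-in against WT, 8 with either pseudocount or TPM, 1 without a filter and 2 to 7 with 1 library left out (2 without knock-in library 1 or WT library 1, 3 without WT library 2). In Activin A against SB431542 these were 2, 6 with the block, 1 at 1 FPKM, without the variance trend or without genes at 0, and 0 without a filter or with any 1 library left out. At an unadjusted p of at most 0.05, 1797 genes passed there.

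With the replicate number as a block, Activin A against SB431542 gave 73 genes higher and 26 lower. WT and knock-in libraries of the same number correlated at -0.0182, 0.00865 and 0.0936 in their deviations, so they share only a number, and the block gave 172 higher and 60 lower there. The block changed no call of a member. In knock-in against WT it moved the adjusted p of SOX2, which was not called, from 0.0201 to 0.0502 (limma), so that it no longer passed. Without read totals, no counting error can be given for the low values of PRDM14, TFCP2L1 and TDGF1.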
